A study of Mus musculus with 6 samples.

Results

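The genes described here make fatty acids from sugar carbon in the liver, regulate that pathway, or are listed with it. They are 10 genes, namely the enzymes Acly, Acaca, Acacb, Fasn and Me1, the lipogenic factor Thrsp, the transcription factors Srebf1 and Mlxipl, and the lipid droplet proteins Pnpla3 and Pnpla5. Their probes were found by the RefSeq accession that the array files give for each non-control probe, without use of any signal, and 19 probes carried such an accession, out of 56605 probes tested and 22911 genes with a symbol. All 10 genes were on the array, 3 of them with 1 probe and 7 with several.

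Liver RNA of 6 male mice was hybridized to 1-colour Agilent arrays, 1 array per mouse. The 3 control mice ate 100% granulated regular food, and the 3 soy mice ate 75% regular food mixed with 25% soy bean powder, for 4 weeks from an age of 12 weeks. No genotype or strain is given in the sources used here, and no treatment other than the diet is named. Food was free in both groups, the hour of collection and the time since the last meal are not given in the sources used here, and according to the study the soy chow held more fat and protein and less available carbohydrate than the regular chow. Each sample was a piece of the right lobe, thus bulk tissue, in which fewer cells of a type and less RNA per cell cannot be told apart. Slide 1 carried the arrays control 1, control 2 and soy 1, slide 3 carried the pair control 3 and soy 3, and soy 2 was alone on slide 2.

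In the hepatocyte, citrate that leaves the mitochondrion is split to acetyl-CoA, acetyl-CoA is carboxylated to malonyl-CoA, and fatty acid synthase joins malonyl units into palmitate with NADPH as the reductant. After a carbohydrate meal insulin raises SREBP-1c, the product of Srebf1, and glucose metabolites activate ChREBP, the product of Mlxipl, and both factors switch on the genes of this pathway. Dietary polyunsaturated fat and fasting are known to lower it.

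To show promoter DNA of these genes, 5 promoters are printed. They include those of Acacb, the single gene of the 10 that passed the test, and of Thrsp, whose signal differed most. The others are those of Fasn, the textbook target of SREBP-1c, of Mlxipl, where the searched sterol element was found, and of Pnpla5, with an E-box. No element specific to ChREBP was searched. Each is the sequence of the 150 bases before a start site from RefSeq (build GRCm38.p6), 5′ to 3′ on the strand of the gene, and capitals mark the motifs found in it.
Acacb, chr5:114165368-114165517, plus strand: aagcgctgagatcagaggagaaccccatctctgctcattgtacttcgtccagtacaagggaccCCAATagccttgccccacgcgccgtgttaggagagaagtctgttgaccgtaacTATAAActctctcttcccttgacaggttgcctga
Thrsp, chr7:97417551-97417700, minus strand: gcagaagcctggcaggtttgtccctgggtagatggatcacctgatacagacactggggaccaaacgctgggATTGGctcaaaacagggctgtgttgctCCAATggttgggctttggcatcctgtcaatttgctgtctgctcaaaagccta
Fasn, chr11:120824548-120824697, minus strand: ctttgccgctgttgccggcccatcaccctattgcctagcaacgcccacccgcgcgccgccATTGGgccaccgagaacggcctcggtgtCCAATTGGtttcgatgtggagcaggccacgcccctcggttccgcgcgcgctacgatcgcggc
Mlxipl, chr5:135106741-135106890, plus strand: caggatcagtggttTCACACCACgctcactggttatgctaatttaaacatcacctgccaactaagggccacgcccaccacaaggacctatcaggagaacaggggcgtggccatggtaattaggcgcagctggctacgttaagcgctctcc
Pnpla5, chr15:84123176-84123325, minus strand: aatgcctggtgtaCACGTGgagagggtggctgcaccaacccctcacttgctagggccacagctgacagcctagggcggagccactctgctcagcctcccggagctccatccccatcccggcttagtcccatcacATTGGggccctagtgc
In Acacb the capitals are a CCAAT box starting at -87 and a TATA box (TATAAA) starting at -34, counted from the start site. Thrsp held CCAAT on the reverse strand at -79 and on the forward strand at -52. The Fasn window held it at -90 on the reverse strand, at -62 on the forward strand and at -59 on the reverse strand, the last pair overlapping. The Mlxipl sequence held a sterol element (TCACNCCAC) at -136, and that of Pnpla5 an E-box (CACGTG) at -137 and a reverse CCAAT at -16.

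The 4 motifs were searched on both strands of the full windows in the table, 300 bases each, of which the 10 genes have 14. CCAAT, a short motif bound by NF-Y, was found in 10 of the 14 windows, in those of 9 genes (all but Acaca), and in 37.4% of all windows. The E-box was found in 2 of the 14 (Mlxipl, in its other window, and Pnpla5) and in 7.15% of all windows, the sterol element in 1 (Mlxipl) and in 1.24%, and TATAAA in 1 (Acacb) and in 13.6%. A match of letters is a description of these windows and not a binding site.

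Of the 10 genes, Acacb passed the test, with a signal 2.04-fold lower in soy livers on its brighter probe, and the other 9 did not pass. The other Acacb probe gave a log2 difference of -0.084. The call was lost with any 1 of the 6 arrays left out and with the slide as a block. To pass, a probe needed an adjusted p (limma, Benjamini-Hochberg over all probes) below 0.05 and a fold change over 1.5 or below 0.66. By this rule 198 of all probes passed (0.35%), 118 of them higher and 80 lower (0.141%) in soy, and 122 genes had at least 1 such probe (0.532%). Scaled from the processed signal of the scanner software instead, 13138 of all probes passed, 11924 of them higher. Values below are normalized log2 signals, a difference of 1 is a doubling, and since probes bind with different strength, signals of different probes do not rank RNA levels.

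On their brightest probes 8 of the 10 genes were lower and 2, Me1 and Srebf1, higher in mean signal in soy, and these signs held under both other scalings of the arrays. The median difference was -0.43 (-0.23 under the 75th-percentile shift), beside -0.0057 over all genes with a symbol. Of the 19 probes, 16 were lower and 3 higher, with 14 lower under a 75th-percentile shift, where a dim probe of Acaca and of Pnpla3 turned sign. An unadjusted limma p under 0.05 was reached by 11 of the 19 probes, and by 6493 of all 56605 probes (11.5%). All soy values lay below all control values for 4 of the 19 (10.3% of all probes), and above for 2 (7.75% of all probes). These counts are descriptive. Several probes belong to the same gene, and the genes were chosen with earlier results of these data known. The lower signs did not hold within both slides: the median difference of the 10 genes was -0.37 within slide 1, where Thrsp had no value, and 0.013 within slide 3.

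**Figure D1:**
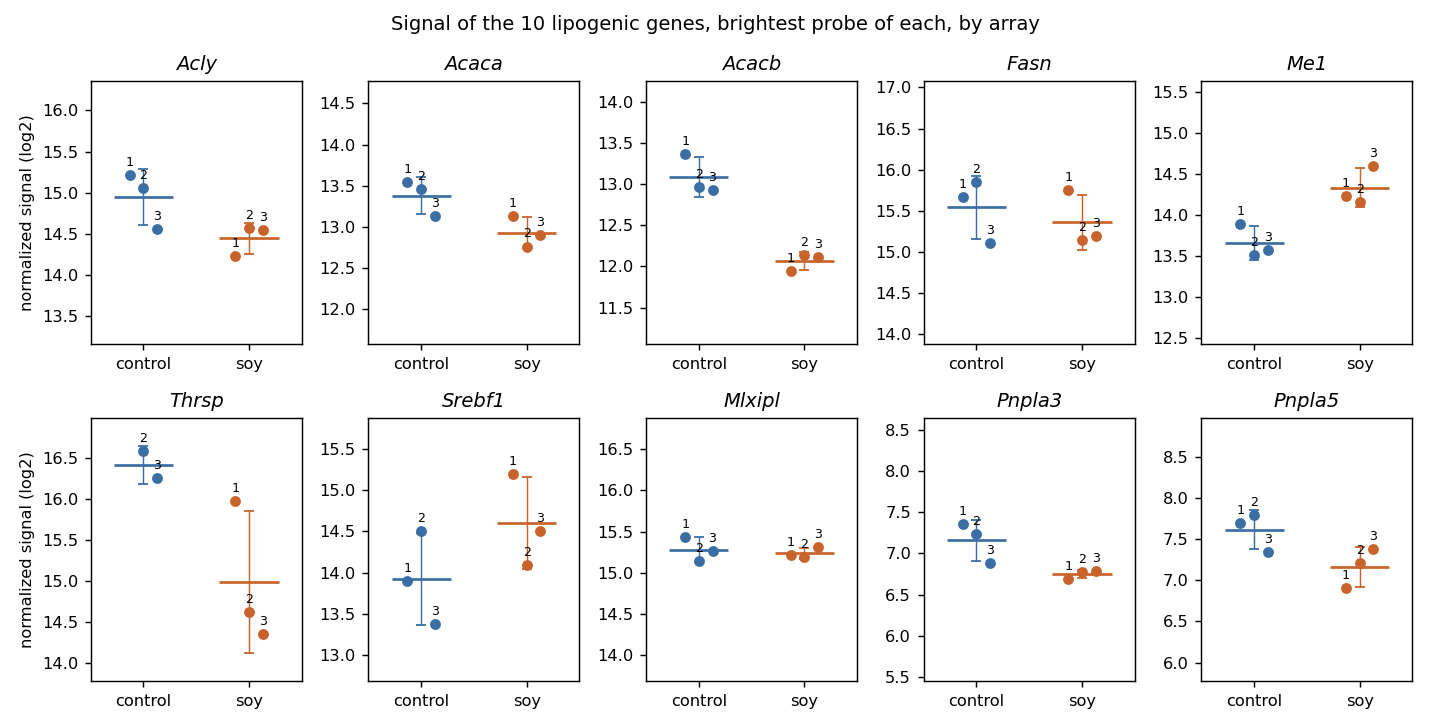
Normalized signal (log2) of the brightest probe of each of the 10 genes in control (blue) and soy (orange) livers, with 1 numbered point per array, the mean as a line and the SD as a bar; each panel spans the same number of log2 units. Acacb shows separate groups, from 12.93 to 13.37 in control and from 11.94 to 12.14 in soy, whereas Fasn, Srebf1 and Mlxipl overlap.

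Acly encodes ATP citrate lyase, which makes the cytosolic acetyl-CoA. Its brighter probe (NM_001199296) read 15.21, 15.06 and 14.56 in control and 14.23, 14.57 and 14.54 in soy livers. Control 3 lay among the soy arrays, so the groups overlapped. The difference was -0.50 (SE 0.18, 95% interval -0.92 to -0.066, limma adjusted p = 0.364). Within slide 1 it was -0.90 and within slide 3 -0.014. The dimmer probe (NM_134037) read 8.11, 8.00 and 7.82 in control and 7.43, 7.68 and 7.71 in soy, without overlap, a difference of -0.37 with an adjusted p of 0.314.

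Acaca encodes acetyl-CoA carboxylase 1, the cytosolic enzyme whose malonyl-CoA feeds the synthesis of fatty acids. Its brightest probe (NM_133360) read 13.55, 13.46 and 13.13 in control and 13.13, 12.76 and 12.90 in soy livers. Control 3 and soy 1 nearly met, though no soy value exceeded a control value. The difference was -0.45 (SE 0.15, limma adjusted p = 0.304), with -0.37 within slide 1 and -0.24 within slide 3. The 3 other probes of the same accession gave -0.46 (adjusted p = 0.426), -0.18 (0.623) and -0.16 (0.721), and their groups overlapped. The dimmest of them was well above background on no soy array, and its sign turned under the 75th-percentile shift, so no direction is given for it.

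Acacb encodes acetyl-CoA carboxylase 2, which sits on the mitochondrion and whose malonyl-CoA inhibits the entry of fatty acids into oxidation. Its brighter probe (NM_133904, probe A_55_P2019054) read 13.37, 12.97 and 12.93 in control livers and 11.94, 12.14 and 12.12 in soy livers. Every soy array was lower than every control array. The means were 13.09 ± 0.24 and 12.07 ± 0.11 (SD, n = 3), so the signal fell by 1.03 on the log2 scale (SE 0.14, 95% interval -1.35 to -0.70, limma adjusted p = 0.0405), and the difference was -1.23 within slide 1 and -0.81 within slide 3. With any 1 of the 6 arrays left out it did not pass: leaving out control 1, 2 or 3 gave an adjusted p of 0.0587, 0.106 or 0.0580, and leaving out soy 1, 2 or 3 gave 0.124, 0.129 or 0.131. When the model held the slide as a block, the adjusted p was 0.182.

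The other Acacb probe (A_66_P110803), of the same accession, did not show this difference. It read 12.29, 12.07 and 12.38 in control and 12.04, 12.36 and 12.09 in soy livers. The groups overlapped, and the difference was -0.084 (95% interval -0.39 to 0.22, limma adjusted p = 0.850). The brighter probe exceeded the dimmer by 1.08, 0.90 and 0.55 (log2) on the control arrays, and by -0.10, -0.23 and 0.028 on the soy arrays. This gap was 0.84 ± 0.27 in control and -0.10 ± 0.13 in soy (SD, n = 3). It was singled out after the values were seen and is given without a test. The position of either probe in the transcript was not used here.

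**Figure D2:**
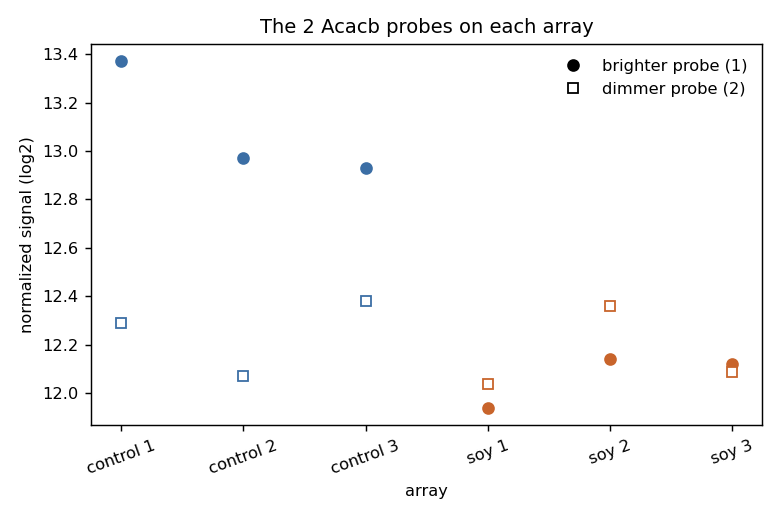
Normalized signal (log2) of both Acacb probes on each of the 6 arrays, filled circles for the brighter and open squares for the dimmer probe, blue for control and orange for soy. The circles drop from at least 12.93 in control to at most 12.14 in soy, while the squares stay between 12.04 and 12.38 in both groups.

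Fasn encodes fatty acid synthase. Its probe (NM_007988) read 15.67, 15.85 and 15.11 in control and 15.75, 15.15 and 15.19 in soy livers. Soy 1 lay with control 1 and control 2, and control 3 was the lowest of all. The difference was -0.18 (SE 0.23, 95% interval -0.72 to 0.36, limma adjusted p = 0.816), and it was -0.0061 within slide 1 and 0.082 within slide 3.

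Me1 encodes the cytosolic malic enzyme, a source of NADPH for the synthase. The brighter of its probes (NM_001198933) read 13.89, 13.51 and 13.58 in control and 14.23, 14.16 and 14.60 in soy livers. Every soy value was above every control value, opposite in sign to the other enzymes. The difference was 0.67 (SE 0.16, 95% interval 0.31 to 1.03, limma adjusted p = 0.153), with 0.53 within slide 1 and 1.02 within slide 3. The other probe gave 0.48 (adjusted p = 0.270), again without overlap. On the scanner's processed signal the brighter probe passed with 0.66 and an adjusted p of 0.0411.

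Thrsp encodes Spot 14, a small protein induced by thyroid hormone and carbohydrate that promotes fatty acid synthesis. On its brighter probe (NM_009381) the spot of control 1 was marked an outlier and left out of the fit, and the other arrays read 16.58 and 16.25 in control and 15.97, 14.63 and 14.36 in soy. The dimmer probe read 14.52, 15.61 and 15.53 in control and 15.01, 13.47 and 13.21 in soy livers. On both probes soy 2 and soy 3 were far below the other arrays, and soy 1 was not. The difference was -1.43 (SE 0.45, limma adjusted p = 0.306, 5 arrays) on the brighter and -1.33 (SE 0.49, adjusted p = 0.359) on the dimmer probe. With the outlier spot kept, control 1 read 15.73 and the difference was -1.20 (adjusted p = 0.326). On the dimmer probe it was -0.056 within slide 1 and -2.32 within slide 3.

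**Figure D3:**
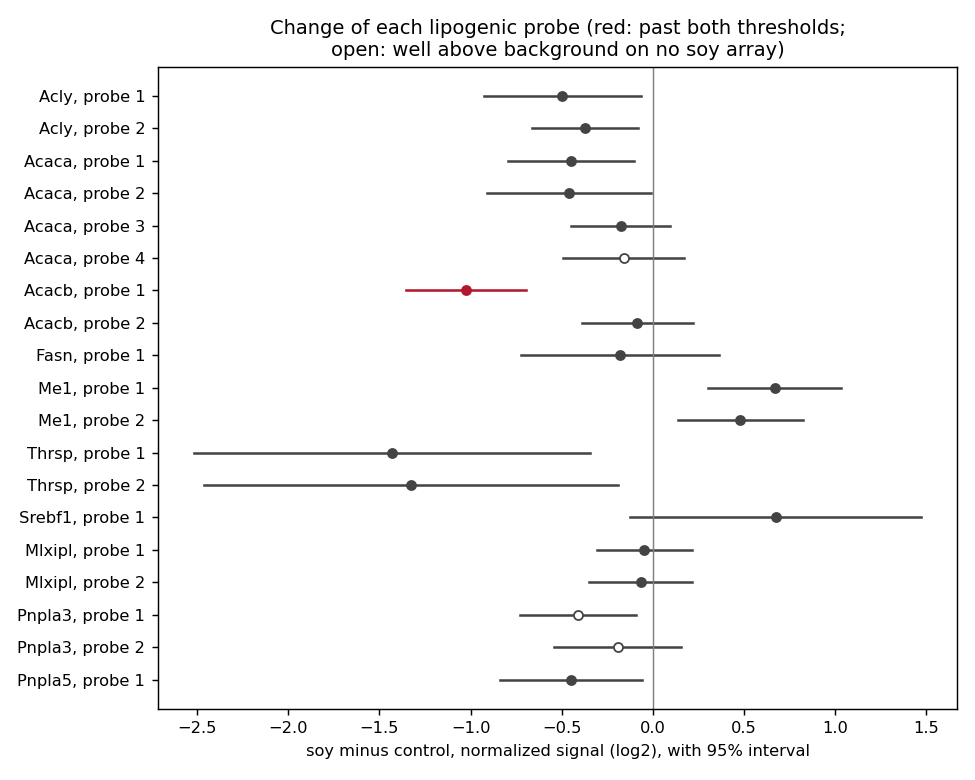
Difference between soy and control (log2) of each of the 19 probes with its 95% interval, the brightest probe of a gene numbered 1; red marks the probe past both thresholds and open circles mark probes well above background on no soy array. Acacb probe 1 at -1.03 is the single red point, both Thrsp probes have the widest intervals, and both Me1 probes and Srebf1 lie above 0.

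Srebf1 encodes the SREBP-1 proteins, of which SREBP-1c is the main form in liver. Its probe (NM_011480) read 13.90, 14.50 and 13.38 in control and 15.20, 14.09 and 14.51 in soy livers, and the groups overlapped. The highest array was soy 1 and the lowest control 3. The difference was 0.68 (SE 0.34, 95% interval -0.12 to 1.47, limma adjusted p = 0.512), with 1.00 within slide 1 and 1.14 within slide 3, so its sign was the reverse of that of Acly, Acaca and Acacb. The probe's accession does not separate the forms of SREBP-1 here.

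Mlxipl encodes ChREBP, the glucose-activated partner of SREBP-1c in this program. Its brighter probe (NM_021455) spanned the narrowest range of the 10 genes, with 15.44, 15.14 and 15.26 in control and 15.21, 15.19 and 15.31 in soy livers. The difference was -0.045 (95% interval -0.31 to 0.21, limma adjusted p = 0.912), and -0.065 (adjusted p = 0.879) on the dimmer probe. The interval reaches no further than -0.31 and 0.21 on the log2 scale, at 3 arrays per group.

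Pnpla3 and Pnpla5 encode patatin-like proteins of the lipid droplet, and Pnpla3 is a known target of SREBP-1c and ChREBP. The brighter Pnpla3 probe (NM_054088) read 7.36, 7.24 and 6.88 in control and 6.69, 6.78 and 6.78 in soy livers. It was well above background on all 3 control arrays and on no soy array, so its soy level is only an upper limit. The measured difference was -0.41 (limma adjusted p = 0.309), without overlap, and it was -0.20 under the 75th-percentile shift and -1.04 (adjusted p = 0.102) on the processed signal. The dimmer probe was well above background on 2 control arrays and no soy array, its groups overlapped (adjusted p = 0.675), and its sign turned under that shift, so no direction is given for it. Pnpla5 (NM_029427) read 7.70, 7.80 and 7.35 in control and 6.90, 7.21 and 7.39 in soy livers. Control 3 and soy 3 met in the middle, and the difference was -0.45 (SE 0.17, adjusted p = 0.366), with -0.84 within slide 1 and 0.040 within slide 3. Under the 75th-percentile shift it was -0.26, and on the processed signal -0.73. The soy arrays had fewer probes well above background in all, 28705, 29378 and 29884, than the control arrays, with 34387, 33745 and 35524, and the part of this gap in the dim Pnpla values was not tested.

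Set against its own mean over the arrays, each gene showed how the single livers differed. The median of the 10 genes was 0.31, 0.34 and -0.058 (log2) in the control livers and -0.036, -0.18 and -0.16 in the soy livers. Control 3 thus lay close to the soy arrays, and it was the lowest control for all genes but Me1, Mlxipl and Thrsp, whose control 1 was lowest on the dimmer probe and, with its outlier spot kept, on the brighter. Soy 1 was the highest soy array for Acaca, Fasn, Thrsp and Srebf1 and the lowest for Acly, Acacb, Pnpla3 and Pnpla5. The 10 genes therefore did not rank the soy livers in a single order.

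**Figure D4:**
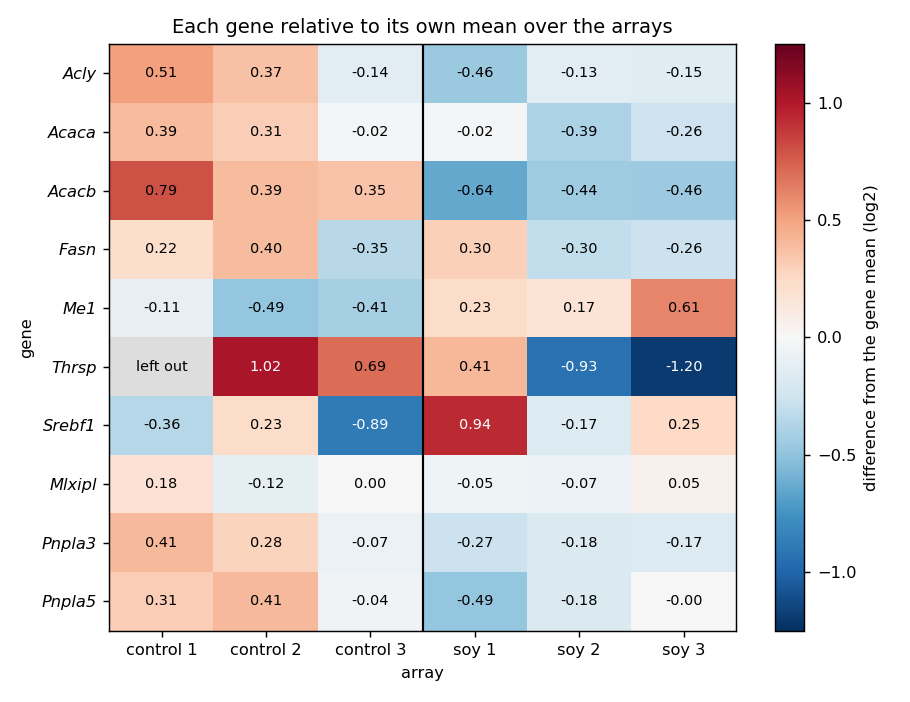
Signal of the brightest probe of each gene relative to the mean of that gene over the arrays (log2), genes in rows and arrays in columns, red above and blue below the mean, with the spot left out for Thrsp in grey. Control 1 and control 2 are above the mean for most genes (7 and 8 of them), control 3 for 3, and soy 1, soy 2 and soy 3 for 4, 1 and 3.

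Of the 7 genes with several probes, each gene's probes shared a sign in the fit to all 6 arrays, though not under every alternative: those of Acaca and Pnpla3 split under the 75th-percentile shift, those of Acaca also within each slide, and those of Mlxipl within slide 3 and without soy 3. The sizes were close for Thrsp (-1.43 and -1.33), Mlxipl (-0.045 and -0.065), Acly (-0.50 and -0.37) and Me1 (0.67 and 0.48). They were far apart for Acacb (-1.03 and -0.084) and ranged from -0.46 to -0.18 over the 3 Acaca probes well above background on all arrays. In the fit to all 6 arrays the probes of Acacb alone fell on different sides of the test.

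Single livers carried different genes. Without control 3 the difference of Acly went from -0.50 to -0.69 (limma adjusted p = 0.141), that of Acaca from -0.45 to -0.57 (0.208) and that of Fasn from -0.18 to -0.39 (0.579), while without control 2 Fasn was at -0.024. Without soy 1 that of Thrsp went from -1.43 to -1.93 (0.0639) and that of Srebf1 from 0.68 to 0.38 (0.682). Me1 stayed between 0.53 and 0.78 in the 6 fits with 1 array left out, with adjusted p from 0.159 to 0.377. Acacb stayed between -1.11 and -0.89. None of the 19 probes passed in any of these 6 fits.

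The neighbouring steps were described with further gene lists, each gene by its brightest probe. Among 11 genes that supply acetyl-CoA, citrate or NADPH, 6 were higher and 5 lower, with a median of 0.032. Tkt, the transketolase of the pentose phosphate pathway, rose from 13.88, 13.96 and 13.76 to 14.75, 14.58 and 14.60, by 0.78 (SE 0.10, limma adjusted p = 0.0369), and in none of the 6 fits with 1 array left out did it pass (adjusted p from 0.0780 to 0.128). Acss2, which makes acetyl-CoA from acetate, fell on its dimmer probe from 12.18, 12.27 and 11.79 to 10.90, 10.62 and 10.56, by 1.39 (SE 0.16, adjusted p = 0.0235). Its brightest probe gave -1.36 with an adjusted p of 0.109. The dimmer probe passed without control 3 (0.0235) and in none of the other 5 fits (0.0639 to 0.106). With a slide block neither Tkt (0.134) nor that Acss2 probe (0.0725) passed.

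None of 8 genes between glucose and pyruvate or known as ChREBP targets passed (median -0.21, with -0.12 within slide 1 and -0.20 within slide 3). G6pc, which releases glucose, gave -0.71 (limma adjusted p = 0.324), and its groups overlapped. Of 15 genes that control SREBP, LXR and ChREBP, 5 were higher and 10 lower (median -0.10, with -0.18 within slide 1 and -0.0095 within slide 3), and none passed. The smallest adjusted p was that of Scap, the SREBP escort, at -0.39 (0.292), followed by Usf2, an E-box factor, at -0.27 (0.300).

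For malonyl-CoA, the product of both carboxylases, 11 genes were listed, kinases and partners of the carboxylases and the carnitine step that malonyl-CoA inhibits. Their median was -0.016, and it turned to 0.022 and 0.0087 under the other scalings. None passed. Prkaa2, a catalytic subunit of the kinase that inactivates both carboxylases, gave 0.41 (limma adjusted p = 0.225), and Cpt1a, the enzyme that malonyl-CoA inhibits, gave -0.51 (adjusted p = 0.257).

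Downstream, 4 of 12 genes of elongation, desaturation and esterification were higher and 8 lower (median -0.32), with 6 and 6 (median -0.093) within slide 1 and a median of -0.26 within slide 3. Lpin1, the phosphatidate phosphatase lipin 1, passed on all 3 of its probes. Its brightest read 15.07, 14.41 and 14.26 in control and 12.17, 11.05 and 11.45 in soy livers, and thus fell by 3.02 (SE 0.31, limma adjusted p = 0.0170). It did not pass without soy 2 (0.0700), without soy 3 (0.0711) or with a slide block (0.0589). The dimmest Lpin1 probe passed in none of the 6 fits with 1 array left out (0.0791 to 0.139), nor with a slide block (0.183). The remaining Lpin1 probe passed with a slide block (0.0332), but not without soy 2 (0.0700) or soy 3 (0.0694). Of 5 other patatin-like phospholipases 3 were higher and 2 lower and none passed, with Pnpla7, a lysophospholipase, at -0.55 (adjusted p = 0.109) and Pnpla2, the triglyceride lipase ATGL, at -0.47 (adjusted p = 0.176). Both were lower on every soy array. The 17 cholesterol synthesis genes, which SREBP-2 drives, had a median of 0.095, with 13 higher and 4 lower (12 and 5 under the 75th-percentile shift), and none passed. Fdft1, squalene synthase, gave 0.44 (adjusted p = 0.146). Their median was -0.25 within slide 1 and 0.18 within slide 3.

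**Figure D5:**
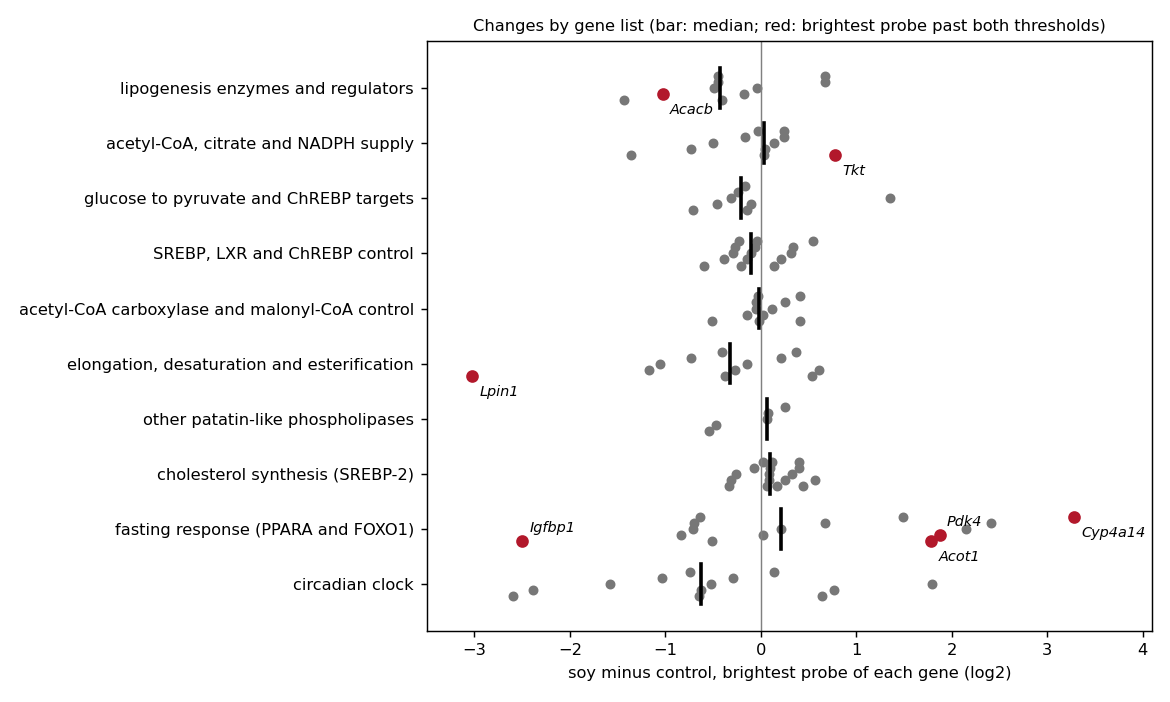
Difference between soy and control (log2) of the brightest probe of each gene, grouped by gene list, with the median of a list as a black bar and genes whose brightest probe passed in red. The lipogenic genes have a median of -0.43, the cholesterol synthesis genes lie close to 0, and the fasting and clock lists spread widest.

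Meals and the hour of day are known to set the level of lipogenic genes in liver, and lists for both were read beside them. Of 15 genes of the fasting response, driven by PPARA and FOXO1, 9 were higher and 6 lower, with a median of 0.21 (0.26 within slide 1 and 0.61 within slide 3). This median pools genes driven by PPARA and by FOXO1 and does not describe either alone. Those that passed and rose were Cyp4a14, a fatty acid omega-hydroxylase, by 3.28 (limma adjusted p = 0.00775), Pdk4, the kinase that closes pyruvate dehydrogenase, by 1.87 (0.0149), and Acot1, an acyl-CoA thioesterase, by 1.79 (0.0313). Igfbp1, an insulin-repressed binding protein, passed and fell by 2.50 (0.0242). The remaining lower genes did not pass. They were Pck1 at -0.84 (limma adjusted p = 0.0576), G6pc at -0.71 (0.324), Irs2 at -0.70 (0.301), Angptl4 at -0.64 (0.0681) and Cpt1a at -0.51 (0.257). With 1 array left out, Cyp4a14 passed in all 6 fits, Pdk4 without each control (but not without soy 1, 0.0686, soy 2, 0.0700, or soy 3, 0.0514), Acot1 without control 2 or control 3 (but not without control 1, 0.0759, soy 1, 0.105, soy 2, 0.125, or soy 3, 0.120), and Igfbp1 without control 3 or soy 3 (but not without control 1, 0.0568, control 2, 0.0832, soy 1, 0.0750, or soy 2, 0.107). With a slide block Cyp4a14 passed (0.0263), and Pdk4 (0.101), Acot1 (0.139) and Igfbp1 (0.161) did not.

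None of the 13 clock genes passed, with 4 higher and 9 lower (median -0.63, with -0.29 within slide 1 and -0.48 within slide 3). Nr1d1, the repressor REV-ERB alpha, gave -1.58 (limma adjusted p = 0.106) and Arntl, its target BMAL1, 1.79 (adjusted p = 0.210), neither with overlap. Relative to the mean of each gene, the clock list had medians of 0.53, 0.46 and -0.14 on control 1, 2 and 3 and of 0.16, -0.19 and -0.82 on soy 1, 2 and 3. Control 3 was the lowest control for this list as for the lipogenic genes, soy 1 the highest soy array. The part of the clock or of feeding in the lipogenic values was not tested.

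The tissue label was checked with cell type markers. All 8 hepatocyte markers were well above background on all 6 arrays and none passed, with Hpd at -0.65 (limma adjusted p = 0.220) and Cps1 at -0.47 (adjusted p = 0.178). Of the hepatocyte markers 1 was higher and 7 lower (median -0.11), with 3 higher and 5 lower on the processed signal. Fat tissue also expresses the lipogenic genes, and of 6 adipocyte markers Adipoq and Plin1 were well above background on no array, Fabp4 was the brightest, and none passed. Lep gave -0.21 (adjusted p = 0.618). Cfd, also named after its values were seen, gave 0.41 (adjusted p = 0.803), the largest difference of the adipocyte list. It read 6.28, 6.26 and 7.10 in control and 8.20, 6.33 and 6.34 in soy livers. It was well above background on 1 control and 1 soy array. Of the adipocyte markers 1 was higher and 5 lower (median -0.11), with 4 higher and 2 lower (median 0.11) under the 75th-percentile shift. The summed linear signal of the adipocyte list was 4258, 3640 and 3903 in control and 3314, 3680 and 3585 in soy livers. Likewise none of 6 Kupffer, 6 stellate, 6 endothelial and 5 cholangiocyte markers passed, their medians being 0.24, -0.056, 0.067 and 0.12, with 5, 2, 3 and 3 of them higher and 1, 4, 3 and 2 lower (3 and 3 of the stellate and 4 and 1 of the cholangiocyte markers under the 75th-percentile shift). The log2 difference was 0.44 for Vsig4 (limma adjusted p = 0.491), 0.45 for Cd5l (0.538), 0.33 for Rgs5 (0.419), -0.33 for Colec11 (0.584), 0.30 for Kdr (0.449), and 0.20 for Clec4g (0.546). Named after their values were seen, Marco gave -0.73 (0.589) and Lyve1 -0.67 (0.654), the largest differences of the Kupffer and endothelial lists. Epcam was well above background on no array and Krt7 on no soy array, and neither passed (0.619 and 0.641).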

How the data were processed

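The authors hybridized Cy3-labelled liver RNA to Agilent G3 Mouse Gene Expression v2 arrays and, per the file headers, deposited Feature Extraction (11.5.1.1) output with median intensities for the spot and for its surroundings, unscaled between arrays. The authors also deposited a table of quantile-normalized log2 values of the same arrays, with medians of 7.2, which differed from the values computed here by 0.0705 at most. Here the median intensities were background corrected by normexp (offset 50), control spots removed, arrays quantile normalized, log2 transformed, outlier spots left out and spots of a probe averaged. All 56605 probes were tested, soy against control, with limma 3.58.1 (lmFit, eBayes) in R 4.3.3, without covariates, with Benjamini-Hochberg adjustment. Replicates were different mice, and 3 per group limit the precision. Where no array of a group was well above background, its level is an upper limit, as stated beside the value. Symbols came from RefSeq accessions (table of GRCm38.p6) for 32994 probes (58.3%). Since the array annotation uses a different build, positions from it are omitted, and the promoter coordinates printed are those of GRCm38.p6. All 10 genes matched the promoter table. Probe sequences were not used here.

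The members and the other 15 gene lists, 152 genes in all with the members, were chosen with earlier results of these data known. All members were named, and of each other list the genes with a probe that passed (at most the 5 largest changes) or else the 2 with the smallest adjusted p; a few genes named this way are left out of the text. A gene is given by its brightest probe. Alternatives were no background correction, the processed signal or the normexp values at a common 75th percentile, a filter on dim probes, keeping outlier spots, trend and robust settings of eBayes, replicate number or slide as a block, within-slide differences, the deposited log2 values, adjusted p alone, the mean of a gene's probes, and each array left out. The fit was tested on simulated data. Tables were made with Python 3.11.15, pandas 2.3.3 and scipy 1.17.1, and plots with matplotlib 3.10.9.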

Additional observations from a re-analysis of the deposited data

How the results depend on the processing

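The count of all probes that passed was 198. It was 13138 with the processed signal (11924 higher), 299 with the 75th-percentile shift, 496 with the filter on dim probes, 25 with the slide block and 26 to 208 with 1 array left out, lowest without soy 2. These 2 scalings moved the median of all probes from -0.010 to 0.13 in both. The count of lipogenic genes that passed, 1 (Acacb), was 2 with the processed signal (Acacb and Me1), 0 with the slide block and 0 in each of the 6 fits with 1 array left out, so that the call rests on all 6 arrays. The median difference of the 10 genes, -0.43, was -0.23 under the 75th-percentile shift and 0.013 within slide 3, where 1 array per group is compared. Of the single genes, those that changed sign were Fasn, to 0.032 with the slide block and to 0.082 within slide 3, Mlxipl (-0.12 to 0.037 with 1 array left out), to 0.037 without control 1 and to 0.051 within slide 3, and Pnpla5, from -0.45 to 0.040 within slide 3. The mean of both Acacb probes gave -0.55. The cause of these shifts was not tested.

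With the replicate number as a block (replicate block), 78 of all probes passed; 1 lipogenic gene did, Thrsp (-1.92, adjusted p = 0.0487), where the pair of the left-out spot carries no weight (the other Thrsp probe gave -1.33 with an adjusted p of 0.454), whereas Acacb did not (adjusted p = 0.105). Same-numbered arrays correlated in their deviations from the group means by 0.122, -0.0605 and 0.0973, and not every array correlated best with its own number, so the numbers are not taken as pairs. Slides 1 and 3 hold same-numbered arrays as well.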
